A study of Mus musculus with 16 samples.

Results

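The genes described here encode the DNA replication machinery, the set of proteins that licenses origins, unwinds the DNA and copies it during S phase. They are 42 of the 36829 features listed for each mouse, and each was found by its symbol, which names 1 feature in the files. Transcript abundance was measured by RNAseq in the femoral cortical bone of 16 female C57Bl/6 mice (C57Bl/6J in the study's methods) of 11 weeks. The mice carried no transgene or deletion that the sources used here name. In 8 of them (HLU) the hindlimbs were unloaded for 7 days by suspension from the tail, and the other 8 (Control) bore weight normally. The bone ends were cut off and the marrow was flushed with saline before the shaft was frozen, so the RNA came from bone cells together with whatever marrow cells, vessels and surface cells remained.

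Replication starts at origins that are bound by the origin recognition complex, which with CDC6 and CDT1 loads a ring of 6 MCM proteins onto DNA, while geminin prevents loading from happening again in the same cycle. The ring becomes an active helicase when CDC45 and the GINS complex join it. Polymerase alpha with its primase starts each strand, polymerases delta and epsilon extend it on the sliding clamp PCNA, and FEN1 and DNA ligase 1 finish the lagging strand. Most of these genes are transcribed around the start of S phase under E2F factors. In a bone shaft, osteocytes are non-dividing cells, and the marrow's red cell, granulocyte and lymphocyte precursors are among the fastest dividing cells of the adult body.

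Every mouse had a library of its own, and the recovered totals by which the values had been divided ran from 7067512 reads (Control 2) to 21363584 reads (HLU 6). In the smallest library 3 reads on a gene of 1 kb equal 0.424 RPKM, and in the largest 0.140 RPKM, limits that cover counting error only. Bone markers were present in every mouse, with means of 295 RPKM for Col1a1, the main collagen of osteoblasts, and 114 RPKM for Dmp1 of osteocytes. Marrow markers were present as well, and the summed abundance of 6 mature granulocyte genes ran from 9549 to 33263 RPKM. The lane of each library is not given in the sources used here.

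All 42 genes were detected in every mouse, with between 51 and 11651 reads per gene and mouse, and all passed the filter on low abundance. All 42 had a lower mean in the HLU group, with log2 fold changes from -0.61 (Orc1) to -0.08 (Pold2) and a median of -0.41, except that Pold2 turned to 0.01 when the libraries were rescaled by median-of-ratios size factors or by quantiles. The other 41 stayed negative under both. A fold change here is a difference of mean log2(RPKM + 0.1), HLU minus control, where RPKM is the reads on a gene scaled to gene length and library size. Of the 42 genes, 7 were lower at an unadjusted limma p under 0.05 with at least a 1.2-fold change (Orc1, Cdt1, Gmnn, Gins3, Pold3, Pcna and Fen1), 0 were higher, and 35 did not pass. The 7 are 16.7% of the genes, against 4.76% of the 16973 features tested that were lower and 1.11% that were higher by the same rule. Among the 12322 features with a mean abundance in the range of these genes, 5.22% were lower, and their median log2 fold change was -0.11. The median over all features tested was -0.10, and 67.9% of them were negative.

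None of the 42 genes passed an adjusted limma p under 0.1, and each of the 7 had an adjusted p of 0.744. The same was true of all 16973 features, of which 0.0% passed in either direction although 1049 had an unadjusted p under 0.05. With limma's voom method on reads recovered from the RPKM values, 9 of the genes were lower at the unadjusted threshold, against 5.39% of all features, and 0 of the genes and 0 of 16946 features passed the adjusted one. The groups overlapped for each of the 42 genes, and over all features 0.0177% were lower and 0.0118% higher with no overlap. By a two-sided permutation test that covered all 12870 splits into 8 and 8, 5 genes had an exact p under 0.05, all with a lower mean, against 5.14% of all features that were lower and 1.21% that were higher. The number of genes at the unadjusted threshold depended on single mice. It was 3 without Control 2, Control 6, Control 7, HLU 1, HLU 4, HLU 6 or HLU 7, where 2.77% to 4.42% of all features were lower. It was 4 without Control 1 (5.44% of all features) or Control 8 (3.58%). It was 13 without Control 3 (6.06%), 14 without Control 5 (6.6%), 15 without HLU 8 (6.81%), 20 without HLU 2 (8.16%) and 20 without HLU 3 (6.89%).

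**Figure D1:**
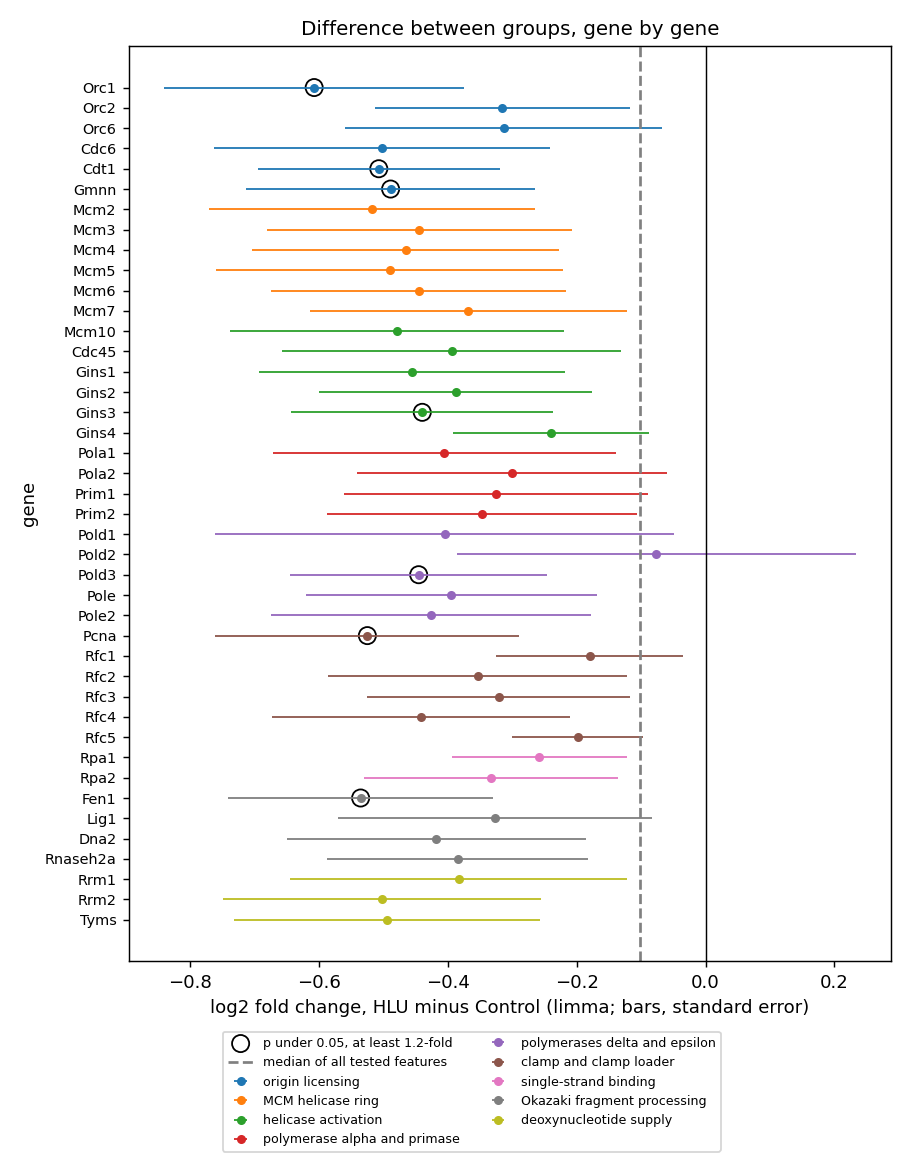
Log2 fold change (HLU minus Control, x axis) of each of the 42 replication genes (y axis), coloured by role, with bars of 1 standard error from limma; circles mark the 7 genes with an unadjusted p under 0.05 and at least a 1.2-fold change, and the dashed line is the median of all 16973 features, -0.10. All 42 points lie below 0, from -0.61 for Orc1 to -0.08 for Pold2, which turned positive when the libraries were rescaled.

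The lowest values of these genes came from 3 HLU mice. HLU 7 had the lowest value of the 16 mice for 31 genes, HLU 4 for 9 and HLU 1 for 2 (Rfc4 and Rfc5). These 3 mice also had the lowest median-of-ratios size factors (HLU 4 0.897, HLU 1 0.913 and HLU 7 0.914), so features in general were low in them. Among controls the factors ran from 0.981 (Control 1) to 1.12 (Control 7). The share of all features that were lowest in each mouse is not given here. The highest value was in Control 7 for 20 genes, in Control 1 for 9, in Control 6 for 8, in HLU 2 for 4 and in Control 2 for 1. The replication score, the mean of the 42 centred log2 values, averaged 0.20 ± 0.28 (SD, n = 8) among controls and -0.20 ± 0.48 (SD, n = 8) after unloading. It ran from -0.15 to 0.66 in control mice and from -0.94 to 0.38 in HLU mice, and 6 of the 8 HLU mice were under the median of the controls. HLU 7 (-0.94), HLU 4 (-0.59) and HLU 1 (-0.53) were the 3 lowest mice, whereas HLU 2 (0.38), HLU 3 (0.35) and HLU 8 (0.22) lay within the control range, as did HLU 5 (-0.13). For 38 of the 42 genes the SD of the log2 values was larger among HLU mice than among control mice. The same held for mean centred log2 values of erythroid genes (0.64 in HLU, 0.41 in controls) and immature granulocyte genes (0.59 and 0.30). The SD was smaller in HLU mice for osteocyte (0.41 and 0.54), osteoblast (0.58 and 0.63) and adipocyte genes (0.71 and 0.74). The share of all features with a larger SD in HLU mice is not given here. Without HLU 4 and HLU 7 together, 0 of the 42 genes were lower at the unadjusted threshold, against 2.14% of all features, and the median log2 fold change of the genes was -0.20.

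**Figure D2:**
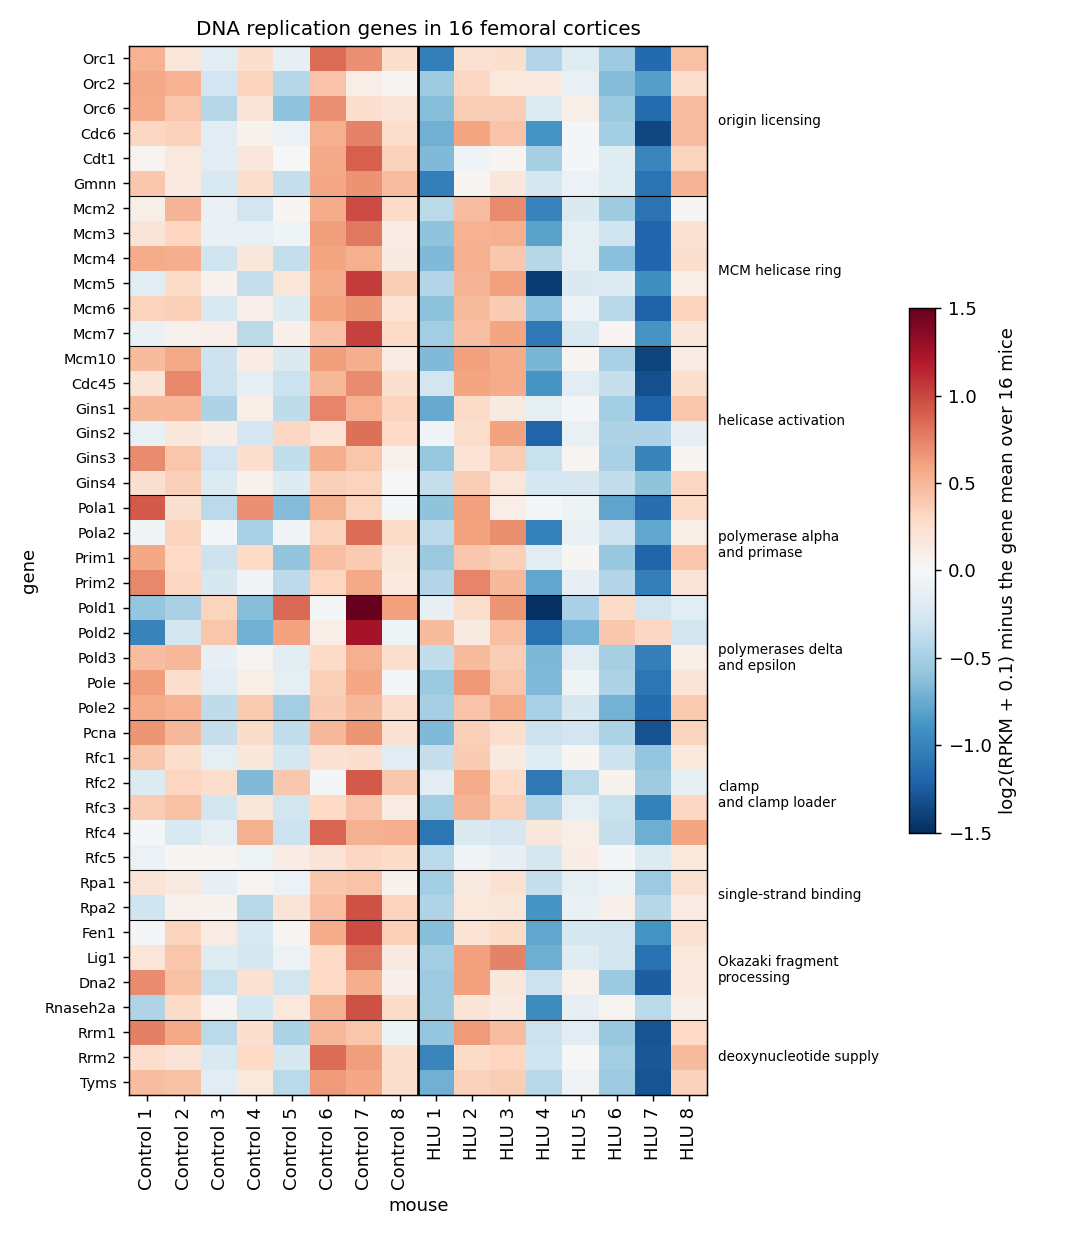
Abundance of the 42 replication genes (rows, grouped by role) in the 16 mice (columns), as log2(RPKM + 0.1) minus the mean of the gene over the 16 mice (colour bar). The HLU 7 column is the lowest for 31 genes and the Control 7 column the highest for 20. The HLU 4 column is the lowest for 9 genes, among them Pold1 and Pold2.

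Promoter sequence was taken from RefSeq (GRCm38.p6) for 34 of the 42 genes as windows of 300 bases that end 50 bases after the annotated start. Windows were searched on both strands for the E2F letters TTTCCCGC, TTTGGCGC, TTTGCCGC and TTTCGCGC. At least 1 match was in the window of 14 of the 34 genes (41.2%), against 2.61% of 27025 genes with a window. CCAAT was in 64.7% of the 34 genes against 41.1%, and GGGCGG in 70.6% against 38.2%. TTTGAA, the core of the element of late cell cycle genes, was in 14.7% against 20.2%. Matches to different motifs may overlap each other, and the E2F letters may overlap themselves on the opposite strand. The median GC content of the windows was 58.0% for the 34 genes and 52.7% over all windows. Of the 14 genes with an E2F match 4 were lower at the unadjusted threshold (Orc1, Cdt1, Gins3 and Pold3, 28.6%), with a median log2 fold change of -0.44. Of the 20 without a match 2 were lower (Pcna and Fen1, 10%), with a median of -0.38. Over all features 4.76% were lower, and the difference between the genes with and without a match was not tested.

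The windows of the 4 lower genes with a match are shown 5′ to 3′ on the strand of the gene, with that of Mcm6, which held 3 matches, and that of Pcna, which held none, for comparison. Capitals mark the E2F letters on either strand. The match began 27 bases before the start in Orc1 (chr4:108579204-108579503, plus strand) and 41 bases before it in Gins3 (chr8:95633309-95633608, plus strand). It began 32 bases after the start in Cdt1 (chr8:122567765-122568064, plus strand) and 17 bases after it in Pold3 (chr7:100121453-100121752, minus strand). In Mcm6 (chr1:128359656-128359955, minus strand) the matches began 110, 106 and 47 bases before the start, and the first pair overlapped. The Pcna window is chr2:132253131-132253430, minus strand.
Orc1: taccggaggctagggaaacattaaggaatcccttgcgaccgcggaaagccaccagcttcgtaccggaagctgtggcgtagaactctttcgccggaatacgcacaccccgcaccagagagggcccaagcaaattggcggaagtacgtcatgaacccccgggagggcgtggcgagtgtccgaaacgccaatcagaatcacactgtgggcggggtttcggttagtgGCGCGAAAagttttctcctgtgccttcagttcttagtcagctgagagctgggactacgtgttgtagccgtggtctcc
Cdt1: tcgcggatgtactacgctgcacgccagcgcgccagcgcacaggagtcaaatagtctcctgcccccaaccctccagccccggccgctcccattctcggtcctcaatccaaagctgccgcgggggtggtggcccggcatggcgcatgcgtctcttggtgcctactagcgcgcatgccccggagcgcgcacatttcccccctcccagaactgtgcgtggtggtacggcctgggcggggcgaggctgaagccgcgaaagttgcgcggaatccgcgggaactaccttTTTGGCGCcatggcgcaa
Gins3: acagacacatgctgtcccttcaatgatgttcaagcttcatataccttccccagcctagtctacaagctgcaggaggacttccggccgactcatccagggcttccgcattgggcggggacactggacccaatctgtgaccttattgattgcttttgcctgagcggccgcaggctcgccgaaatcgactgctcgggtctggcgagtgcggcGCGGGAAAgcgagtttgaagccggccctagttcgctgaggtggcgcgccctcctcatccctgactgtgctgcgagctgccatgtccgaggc
Pold3: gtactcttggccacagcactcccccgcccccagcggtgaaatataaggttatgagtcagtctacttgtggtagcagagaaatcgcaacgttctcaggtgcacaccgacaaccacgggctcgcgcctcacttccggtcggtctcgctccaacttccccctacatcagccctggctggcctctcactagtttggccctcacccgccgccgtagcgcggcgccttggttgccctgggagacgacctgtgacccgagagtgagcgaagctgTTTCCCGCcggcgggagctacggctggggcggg
Mcm6: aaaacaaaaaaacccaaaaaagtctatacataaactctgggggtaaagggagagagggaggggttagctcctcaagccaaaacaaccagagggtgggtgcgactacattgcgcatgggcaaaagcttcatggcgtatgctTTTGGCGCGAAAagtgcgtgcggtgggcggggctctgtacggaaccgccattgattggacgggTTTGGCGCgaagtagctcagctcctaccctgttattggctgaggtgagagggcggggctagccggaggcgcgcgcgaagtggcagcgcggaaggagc
Pcna: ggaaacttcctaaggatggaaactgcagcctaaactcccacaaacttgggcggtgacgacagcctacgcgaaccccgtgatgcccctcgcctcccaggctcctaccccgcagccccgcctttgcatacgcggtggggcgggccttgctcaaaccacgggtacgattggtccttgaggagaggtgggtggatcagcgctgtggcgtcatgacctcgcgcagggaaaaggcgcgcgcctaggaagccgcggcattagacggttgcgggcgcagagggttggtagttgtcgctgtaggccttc
A match is a run of letters in a window, and the binding of any factor was not measured in these mice.

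The licensing genes had a median log2 fold change of -0.50, the lowest of the role groups but close to the -0.49 of deoxynucleotide supply. Of the 6, 3 were lower at the unadjusted threshold (50%, against 4.76% of all features). Orc1 encodes the largest subunit of the origin recognition complex and the one made periodically in the cell cycle (chr4:108579423-108614833, plus strand, GRCm38). Its abundance had a low, median and high of 4.10, 5.44 and 8.27 RPKM among controls and of 1.99, 3.69 and 6.24 RPKM after unloading. Of the HLU mice, 7 of 8 were under the control median and 5 below every control mouse, and 3 control mice lay above every HLU mouse. The log2 fold change was -0.61 with a standard error of 0.23 (limma p = 0.0185, exact permutation p = 0.0246).

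Cdt1, which brings the MCM ring to the origin (chr8:122568015-122573554, plus strand), had a low, median and high of 9.38, 11.7 and 19.5 RPKM among controls and of 5.22, 9.63 and 13.2 RPKM after unloading. Here 4 HLU mice were below every control mouse, and 7 of 8 were below the control median. Its log2 fold change was -0.51 with a standard error of 0.19 (limma p = 0.0151, exact permutation p = 0.0180), the lowest p of the 42 genes. Gmnn encodes geminin, the inhibitor of CDT1 (chr13:24751845-24761923, minus strand). It had 32.9, 52.6 and 66.8 RPKM as low, median and high in control mice and 19.4, 38.0 and 59.2 RPKM after unloading. The loading factor and its inhibitor were thus both lower at the unadjusted threshold, Gmnn with a log2 fold change of -0.49 and a standard error of 0.22 (limma p = 0.0436, exact permutation p = 0.0581).

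Orc6, a small subunit of the origin complex, was the most abundant licensing gene by deposited RPKM, with a mean of 44.7 over the 16 mice, though with GENCODE M21 lengths Gmnn (37.2) came before Orc6 (29.9). It ran from 27.8 to 67.6 RPKM with a median of 49.2 among controls, and from 18.9 to 58.1 RPKM with a median of 40.8 after unloading. The ranges overlapped over most of their length, and its log2 fold change of -0.31 with a standard error of 0.25 did not pass (limma p = 0.22, exact permutation p = 0.250). Cdc6, the ATPase that loads the ring with CDT1, had a log2 fold change of -0.50 (limma p = 0.0708, exact permutation p = 0.0917), and Orc2, a core subunit of the origin complex, one of -0.32 (limma p = 0.129, exact permutation p = 0.148).

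None of the 6 genes of the MCM ring passed, and their log2 fold changes lay within a narrow band, from -0.52 (Mcm2) to -0.37 (Mcm7) with a median of -0.46. Mcm6 was the most abundant, with a mean of 53.7 RPKM, followed by Mcm3 at 51.6, Mcm4 at 42.1, Mcm5 at 39.6, Mcm2 at 37.1 and Mcm7 at 19.3 RPKM. With the combined exon length of GENCODE M21 in place of the length used in the files, Mcm6 was again highest, at 59.3 RPKM, and Mcm2 was lowest, at 17.99 RPKM. Mcm6 had 43.3, 61.4 and 80.1 RPKM as low, median and high in control mice and 21.8, 42.9 and 70.4 RPKM after unloading. Of the HLU mice 4 were below every control mouse and 3 were above the control median, and the log2 fold change was -0.45 with a standard error of 0.23 (limma p = 0.0687, exact permutation p = 0.0855). The other 5 had limma p values from 0.0569 (Mcm2) to 0.152 (Mcm7). Mcm5 and Mcm7 were lowest in HLU 4, and the other 4 ring genes were lowest in HLU 7.

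Of the 6 genes that turn the ring into a working helicase, 1 was lower at the unadjusted threshold (16.7%, against 4.76% of all features). Gins3 encodes a GINS subunit (chr8:95633453-95645060, plus strand). Its low, median and high were 7.39, 12.1 and 15.6 RPKM among controls and 4.72, 8.62 and 12.4 RPKM after unloading. In 7 of 8 HLU mice it was below the control median, and 4 control mice were above every HLU mouse. The log2 fold change was -0.44 with a standard error of 0.20 (limma p = 0.0453, exact permutation p = 0.0569). Gins4, the most abundant gene of the group per length (26.3, 33.9 and 39.0 RPKM among controls, 19.9, 25.4 and 39.3 RPKM after unloading), had its highest value in HLU 2 and a log2 fold change of -0.24 with a standard error of 0.15 (limma p = 0.134, exact permutation p = 0.137). For Gins1, 8 of 8 HLU mice were under the control median, yet its log2 fold change of -0.46 had a limma p of 0.0719 and an exact permutation p of 0.0909. Gins2, Cdc45 and Mcm10, which helps CDC45 and GINS to open the ring, had log2 fold changes of -0.39, -0.39 and -0.48 and did not pass.

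The 4 genes of polymerase alpha and its primase did not pass, with log2 fold changes from -0.41 (Pola1, the catalytic subunit) to -0.30 (Pola2). Prim2, the large primase subunit, was the most abundant of the 4 by deposited RPKM, though with GENCODE M21 lengths Prim1 (19.1) came before Prim2 (6.78). Prim2 had 12.8, 19.8 and 27.8 RPKM as low, median and high in control mice and 8.23, 13.9 and 27.9 RPKM after unloading. Its HLU range thus spanned more than its control range, with 4 HLU mice below every control mouse and HLU 2 above all. The log2 fold change was -0.35 with a standard error of 0.24 (limma p = 0.167, exact permutation p = 0.193).

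Within the replicative polymerases, the 3 delta genes did not share one pattern. Pold3, an accessory subunit of polymerase delta (chr7:100082111-100121565, minus strand), had 11.9, 16.1 and 19.3 RPKM as low, median and high in control mice and 6.51, 11.2 and 18.6 RPKM after unloading. Its log2 fold change was -0.45 with a standard error of 0.20 (limma p = 0.0393, exact permutation p = 0.0514). Pold1, the catalytic subunit, was the least abundant of the 42 genes, at 0.951, 1.74 and 4.63 RPKM among controls and 0.379, 1.38 and 2.48 RPKM after unloading. Its highest and lowest mice differed 12.2-fold, the widest spread of the 42 genes, and its log2 fold change of -0.41 had a standard error of 0.36 (limma p = 0.270, exact permutation p = 0.309). Pold2, whose product joins POLD1 to the rest of the enzyme, had a higher median in HLU mice (5.08 RPKM) than in control mice (4.40 RPKM), and a log2 fold change of -0.08 with a standard error of 0.31 (limma p = 0.808, exact permutation p = 0.819). These were the only genes with fewer than 100 reads in some mouse.

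Pole2, a subunit of polymerase epsilon, was the most abundant of this group by deposited RPKM, though with GENCODE M21 lengths Pold3 (18.1) came before Pole2 (10.2). Pole2 had 11.3, 21.3 and 24.0 RPKM among controls and 7.25, 12.6 and 23.9 RPKM after unloading as low, median and high. The medians lay far apart but the highest mice of both groups were at the same level, and its log2 fold change of -0.43 with a standard error of 0.25 did not pass (limma p = 0.104, exact permutation p = 0.141). Pole, the catalytic subunit of the leading-strand polymerase, had a log2 fold change of -0.39 (limma p = 0.0982, exact permutation p = 0.118).

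Pcna encodes the sliding clamp (chr2:132249162-132253314, minus strand) and was the most abundant gene of the clamp and clamp loader group per length. It had 25.5, 43.0 and 52.3 RPKM as low, median and high in control mice and 13.2, 26.6 and 42.2 RPKM after unloading. All 8 HLU mice were under the control median, 3 of them below every control mouse. The log2 fold change was -0.53 with a standard error of 0.24 (limma p = 0.0400, exact permutation p = 0.0479). The 5 genes of replication factor C, which opens the clamp and closes it around DNA, did not pass. Their log2 fold changes ran from -0.44 (Rfc4) to -0.18 (Rfc1). Rfc5 varied least of the 42 genes, 1.65-fold between its highest and lowest mouse, and had an exact permutation p of 0.0364 beside a limma p of 0.0677 at a log2 fold change of -0.20, which is under 1.2-fold.

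The genes for 2 subunits of replication protein A, which coats single-stranded DNA, did not pass. Rpa1 had 18.4, 21.4 and 26.9 RPKM as low, median and high in control mice and 13.7, 18.5 and 23.5 RPKM after unloading, with a log2 fold change of -0.26 and a standard error of 0.14 (limma p = 0.0737, exact permutation p = 0.0721). Rpa2 had a log2 fold change of -0.33 (limma p = 0.108, exact permutation p = 0.126).

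Of the 4 genes for Okazaki fragment processing, 1 passed (25%, against 4.76% of all features that were lower). Fen1, the flap endonuclease that trims displaced primers (chr19:10199132-10204169, minus strand), had 6.23, 8.59 and 14.5 RPKM as low, median and high in control mice and 3.87, 6.04 and 8.87 RPKM after unloading. Here 5 HLU mice were below every control mouse and 4 control mice were above every HLU mouse. The log2 fold change was -0.54 with a standard error of 0.21 (limma p = 0.0188, exact permutation p = 0.0269). Lig1, the ligase that seals the fragments, was the most abundant of the 4 by deposited RPKM, though with GENCODE M21 lengths Fen1 (33.5) came before Lig1 (30.5). The length implied by the values of Fen1 was 4.35 times its GENCODE M21 length, so the second order is uncertain. Lig1 had 16.2, 21.4 and 33.3 RPKM among controls and 8.80, 16.3 and 32.3 RPKM after unloading. Of the HLU mice, 4 lay below every control mouse, while the highest mice of both groups were at similar levels. Lig1 had a log2 fold change of -0.33 with a standard error of 0.24 (limma p = 0.198, exact permutation p = 0.224). Dna2, a nuclease for long flaps, and Rnaseh2a, which removes RNA primers, had log2 fold changes of -0.42 and -0.39 and did not pass.

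The 3 genes of deoxynucleotide supply had a median log2 fold change of -0.49 and did not pass. Rrm2, the regulated subunit of ribonucleotide reductase, was the most abundant of all 42 genes, with a mean of 112 RPKM. It had 88.9, 126 and 188 RPKM as low, median and high in control mice and 43.7, 95.7 and 146 RPKM after unloading. Among the HLU mice, 4 were below every control mouse and 3 were above the control median. The log2 fold change was -0.50 with a standard error of 0.25 (limma p = 0.0579, exact permutation p = 0.0752). Tyms, thymidylate synthase, had a log2 fold change of -0.49 (limma p = 0.0524, exact permutation p = 0.0653), and Rrm1, the large reductase subunit, one of -0.38 (limma p = 0.161, exact permutation p = 0.188).

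**Figure D3:**
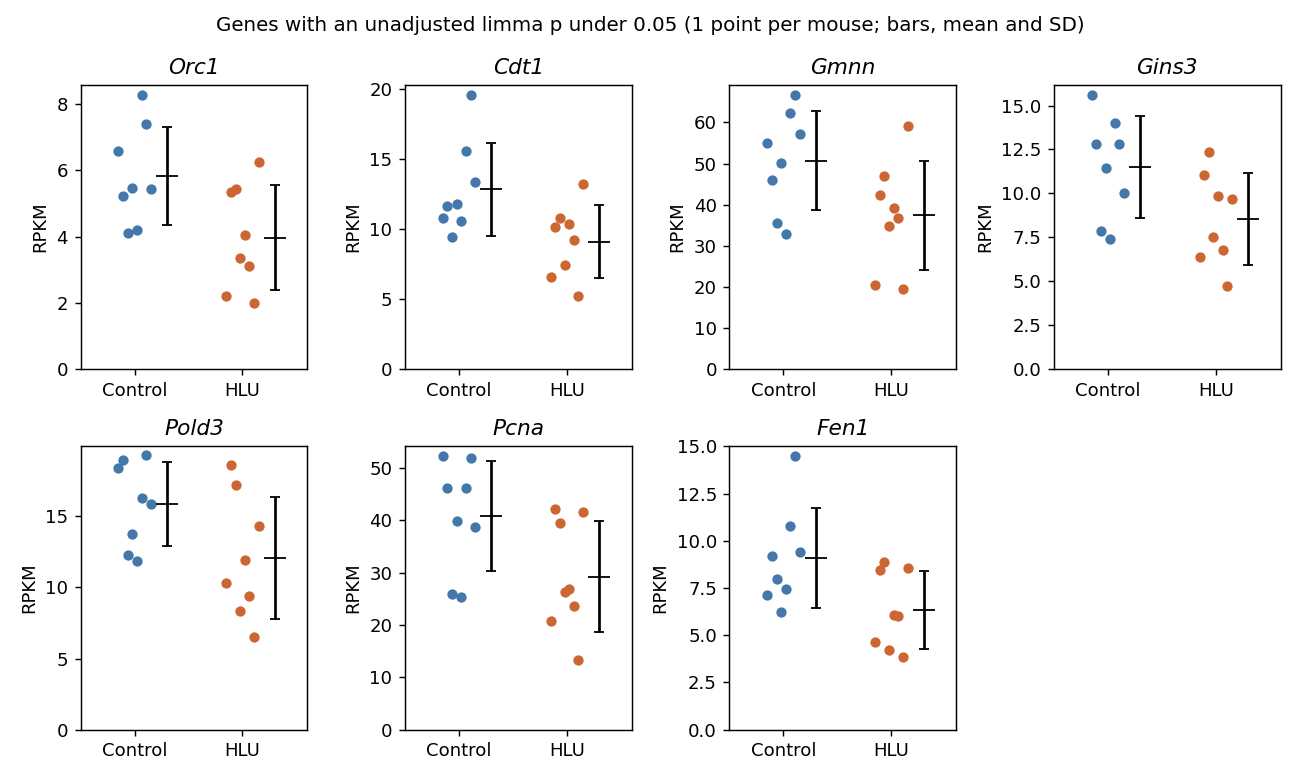
Abundance in RPKM (y axis) of the 7 replication genes that were lower in HLU at an unadjusted limma p under 0.05, with 1 point per mouse and the mean and SD beside each group of 8. The groups overlap for each gene, and the lowest mouse of each panel is HLU 7.

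Cdt1, Fen1 and Orc1 were the steadiest of the 7. Each stayed lower at the unadjusted threshold whichever of the 16 mice was left out, and in 29 of 32 alternative analyses in all. The 3 analyses in which they did not pass were the same for each: an erythroid score as a covariate, 3 marrow scores as covariates, and the removal of HLU 4 and HLU 7 together. Pold3 passed in 16 of the 32, Gmnn in 15, Pcna in 14 and Gins3 in 13.

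Genes that work beside the replication machinery were described from 3 further lists, of which 71 of 72 genes were found and tested. Of these 5 were lower, 0 were higher and 66 did not pass, with a median log2 fold change of -0.35. The 5 are 7.04% of the 71, near the 4.76% of all features, so they are named as values and the lists are not set apart from other features. The nucleotide enzymes held 3 of the 5. These were Dck, which phosphorylates salvaged deoxynucleosides (log2 fold change -0.51, limma p = 0.0472, exact permutation p = 0.0643), Dtymk, thymidylate kinase (-0.38, 0.0377 and 0.0468), and Nme1, a nucleoside diphosphate kinase (-0.41, 0.0129 and 0.0138). The others were Rpa3, the third subunit of replication protein A (log2 fold change -0.46, limma p = 0.0411, exact permutation p = 0.0547), and Mcm8, a helicase of DNA repair (-0.48, 0.00942 and 0.00901). Mcm8 ran from 2.45 to 4.01 RPKM among controls and from 1.56 to 2.96 RPKM after unloading. None of 27 genes of E2F factors and G1/S control passed, and their median log2 fold change was -0.28.

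The replication genes varied together from mouse to mouse. With the group means removed, the 861 pairs among the 42 genes had a median Pearson's r of 0.80 over the 16 mice, 247 pairs were above 0.9 and 34 were negative. The median r of a replication gene with any tested feature was 0.12. All these genes share the libraries, their depth and their scaling, so the values are descriptions and carry no p. The closest pair was Cdc6 and Mcm6 (r = 0.99), and Orc1 and Rrm2 also reached 0.99. Within role groups the median r was 0.95 for deoxynucleotide supply, 0.90 for the MCM ring, 0.88 for licensing and 0.88 for helicase activation. It was 0.46 for the clamp and clamp loader and 0.29 for polymerases delta and epsilon. Pold1 and Pold2 varied with each other (r = 0.89), with Rfc2 (r = 0.88 and 0.76) and with Rpa2 (r = 0.85 and 0.70). They varied less with Pold3 (r = 0.30 and 0.03). The lowest r of all pairs was that of Orc2 with Pold2 (-0.54).

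Erythroid genes were lower in HLU mice beside the replication genes. Of 28 erythroid markers found in the files, each above 0 in every mouse, 8 were lower at the unadjusted threshold (28.6%, against 4.76% of all features), 0 were higher, and the median log2 fold change was -0.53. The 8 included Klf1 and Hemgn, transcriptional regulators of red cell precursors, and Rhag, Rhd, Kel and Cldn13 of the red cell membrane. The others were the beta globin genes Hbb-b1 and Hbb-b2, which may share reads. The summed erythroid abundance ran from 4425 to 11072 RPKM with a median of 5088 among controls and from 2344 to 6271 RPKM with a median of 3705 after unloading. In bulk RNA, fewer cells of a type and less RNA per cell cannot be told apart. Within groups, the replication score had Pearson's r = 0.92 and Spearman's rho = 0.89 with the erythroid score, the mean of the 28 centred log2 values. It was 0.90 without HLU 4 and HLU 7, the mice farthest from the median erythroid score, 0.80 over the 8 control mice and 0.97 over the 8 HLU mice.

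**Figure D4:**
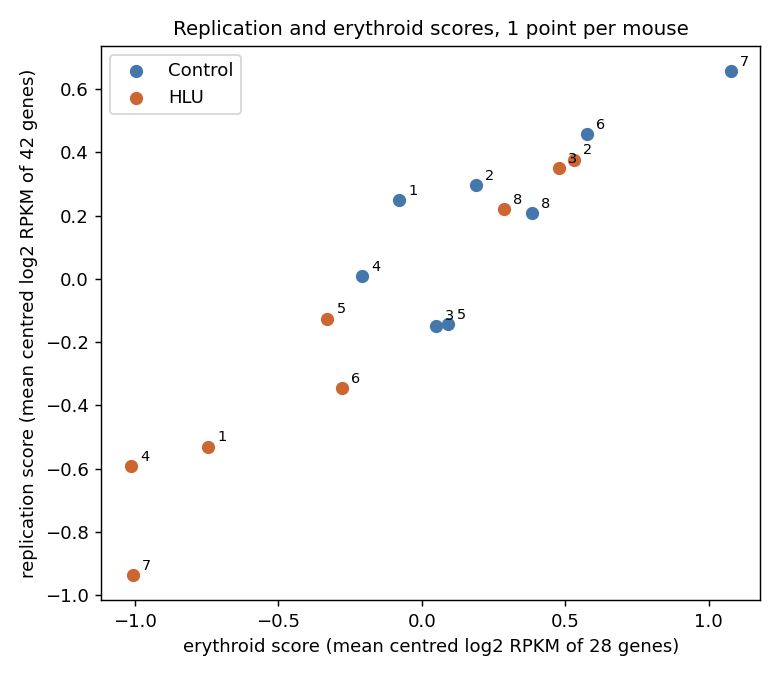
Replication score (y axis, mean of 42 centred log2 values) against erythroid score (x axis, mean of 28 centred log2 values), with 1 point per mouse labelled by its number and coloured by group. The points rise together, HLU 4 and HLU 7 lie at the lower left (erythroid scores of -1.01 and -1.01) and Control 7 at the upper right (1.08).

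Single replication genes had a median r of 0.79 and a median rho of 0.75 with the erythroid score, from 0.41 (Orc2) to 0.98 (Fen1). Without HLU 4 and HLU 7 the median r was 0.72. Over all features tested the median r was 0.19, and 5.18% of them were at or above 0.79. With the erythroid score as a covariate, 0 of the 42 genes were lower at the unadjusted threshold, against 1.38% of all features. The median log2 fold change of the genes was then -0.03, the same as that of all features, and 29 of the 42 were negative. A score that itself differs between the groups takes up part of any group difference, so this value does not separate the groups from the score.

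The same covariation was found with granulocyte genes, although these differed less between the groups. The replication score had r = 0.91 with a score of 8 immature granulocyte genes and r = 0.87 with one of 6 mature granulocyte genes, within groups. Single replication genes had a median r of 0.81 (median rho 0.84) with the immature and 0.87 (median rho 0.86) with the mature granulocyte score. Both medians were above those with the erythroid score (r = 0.79, rho = 0.75). Over all features tested the median r was 0.12 with the immature and 0.09 with the mature granulocyte score. None of the 8 or of the 6 passed at the unadjusted threshold, with median log2 fold changes of -0.13 and -0.22. With the immature granulocyte score as a covariate, 17 of the 42 replication genes were lower, against 5.24% of all features, and with the mature granulocyte score 8, against 4.08%. The median log2 fold change of the 42 genes was -0.30 and -0.25 with these covariates, smaller in size than the -0.41 without a covariate. Both covariates were added after the covariation had been seen. The replication score had r = 0.76 with 5 megakaryocyte genes, of which 3 were lower (60%). It had r = 0.69 with 9 macrophage genes and r = 0.56 with 12 genes of B lineage precursors, of which 1 was lower (8.33%). Over the 8 control mice alone r was 0.56 (megakaryocyte), 0.27 (macrophage) and -0.07 (B lineage). Over the 8 HLU mice it was 0.83, 0.85 and 0.86 in the same order. The median r of single replication genes with these scores was 0.62 (megakaryocyte), 0.60 (macrophage) and 0.51 (B lineage). Of all features, 15.1%, 12.9% and 21.3% were at or above these medians, in the same order. Over all features 4.76% were lower.

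Scores of bone and stromal cells ran the other way. The replication score had r = -0.59 with 7 osteocyte genes, -0.55 with 5 endothelial genes, -0.47 with 4 adipocyte genes, -0.41 with 5 osteoclast genes and -0.37 with 7 osteoblast genes. Of the 7 osteocyte genes 1 was higher in HLU mice at the unadjusted threshold, against 1.11% of all features. It was Mepe, which encodes a matrix protein of osteocytes, and the median log2 fold change of the 7 was 0.39. RPKM values are shares of a library, so the levels of different cell types' genes are not independent. The part of the marrow lists in the difference of the replication genes was not tested beyond these covariates.

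The genes differed in which marrow score they followed. Fen1, Mcm7, Mcm5 and Pola2 had r of 0.98, 0.98, 0.96 and 0.95 with the erythroid score and of 0.63, 0.53, 0.54 and 0.65 with the mature granulocyte score. Rrm1, Prim1, Pola1 and Orc2 had r of 0.98, 0.96, 0.93 and 0.92 with the mature granulocyte score and of 0.66, 0.64, 0.45 and 0.41 with the erythroid score. Pold1 and Pold2 had r of 0.68 and 0.45 with the erythroid score and of -0.03 and -0.29 with the mature granulocyte score.

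The GC content of the transcript moved with this ordering. The longest annotated coding transcript (GENCODE M21) ranged from 41.5% GC (Pola1) to 60.7% (Pold1) over the 42 genes, with a median of 49.0%. Across the 42 genes, GC content had Pearson's r = -0.67 and Spearman's rho = -0.70 with the correlation to the mature granulocyte score, and 0.47 and 0.63 with the correlation to the erythroid score. These are values across genes, which are not independent replicates. The 9 genes that were lowest in HLU 4 had 50.5% to 60.7% GC, all above the median, and the 31 that were lowest in HLU 7 had 41.5% to 58.8% with a median of 47.9%. With the fold change itself GC content had r = 0.12 and rho = 0.03. Its part in the covariation was not tested.

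**Figure D5:**
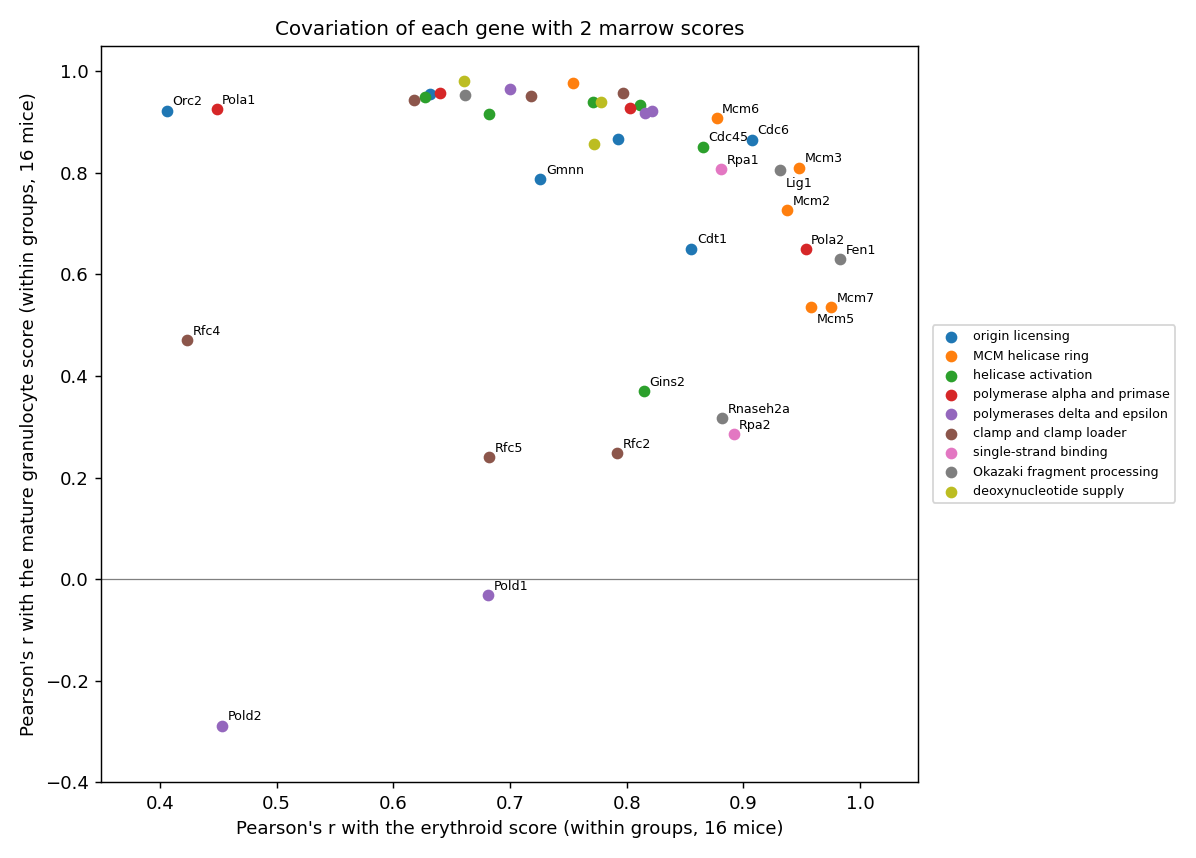
Pearson's r of each of the 42 replication genes with the erythroid score (x axis) and with the mature granulocyte score (y axis), within groups over 16 mice, coloured by role; 19 genes in the crowded upper middle carry no name. Mcm5, Mcm7 and Fen1 lie to the right, Orc2 and Pola1 at the upper left, and Pold1 and Pold2 lie below 0 on the y axis.

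Some of these genes share their position with others, and the sources used here do not state that reads were counted by strand. In GENCODE M21 on GRCm38, 11 of the 42 overlap a coding gene on the opposite strand, among them Fen1 (Tmem258), Mcm7 (Ap4m1 and Cops6), Rfc4 (Eif4a2) and Rnaseh2a (Prdx2, an antioxidant enzyme abundant in red cells). Of the 7 lower genes, Gmnn, Gins3, Pold3 and Pcna overlap no annotated gene, and Orc1 overlaps a non-coding transcript on the opposite strand. Cdt1 overlaps a predicted gene on its own strand. The gene length implied by the values was 10524 bases for Fen1 and 4473 bases for Pcna, longer than the whole annotated genes (5038 and 4153 bases), and what these lengths cover is not given in the sources used here. The values of the overlapping genes are uncertain to that extent.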

How the data were processed

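Total RNA of the femoral cortex of 16 mice was made into TruSeq libraries and sequenced on a HiSeq, 8 libraries per lane. Alignment by the authors used TopHat2, and RPKM values were deposited for each mouse. The submitters' processing notes name the build mm9 and DESeq2. The counting tool, the annotation and its gene lengths are not given in the sources used here, and the implied lengths ranged from 0.241 (Rfc2) to 4.35 (Fen1) times the combined exon length of GENCODE M21, so levels are compared between genes with care. Groups came from the sample labels. The counts behind the deposited RPKM were recovered as whole reads for 16946 of 16973 features (99.8%, within 0.01 reads).

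The main test was limma 3.58.1 in R 4.3.3 on log2(RPKM + 0.1), with a variance trend, over features averaging 0.5 RPKM or more, and Benjamini-Hochberg adjustment over all of them. A gene was counted as lower or higher if it changed at least 1.2-fold with an unadjusted p under 0.05, and separately with one of under 0.1 after adjustment. Two-sided exact permutation tests covered all 12870 splits (smallest p 0.000155) in Python 3.11.15 (pandas 2.3.3, numpy 2.4.6, scipy 1.17.1). The limma fit and the recovery of whole reads were tested on simulated data. Figures were drawn with matplotlib 3.10.9. Covariation was computed with group means removed, and as a description.

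The genes, role groups, marker lists and tests were chosen with earlier results of these data known. Full values are given for genes with an unadjusted limma p under 0.05 and for the most abundant gene of each role; others are given by fold change and count, and those named for covariation, GC content, overlap or a single value were chosen after their values were seen. The 32 alternatives changed the pseudocount, filter, scaling, variance model, weights, test, block, covariates or mice. The 2 granulocyte covariates and the removal of HLU 4 and HLU 7 together were added after seeing the data. Promoter windows are RefSeq's (GRCm38.p6) and gene positions GENCODE M21's (GRCm38). No coordinate was taken from the deposited files. Windows were not found for Gmnn, Mcm4, Gins1, Gins2, Gins4, Prim2, Pole and Rfc2. Of the wider lists E2f6 was not matched by symbol, and the skeletal muscle list, of which no symbol was matched, was not used here.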

Additional observations from a re-analysis of the deposited data

Results flagged for a closer look

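Of 84 groups of 8 mice (each of the 42 replication genes in each group), 1 held a mouse far from the others. Pold1, the catalytic subunit of polymerase delta, stood at 0.379 RPKM in HLU 4, and on the scale of log2(RPKM + 0.1) its gap to the next mouse was 0.530 of the range of the HLU group, above Dixon's critical value of 0.526 for 8 values. Chance alone flags about 1 in 20 groups, which would be 4.2 of the 84, so a single value is fewer than that. HLU 4 was also the lowest of the 16 mice for Pold2 and for 7 other replication genes.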

How the results depend on the processing

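The count of 7 genes lower was unchanged with pseudocounts of 1 (4.3% of all features) and 0.01 (4.64%). It was also unchanged without a filter (3.54%) and with a minimum mean of 2 RPKM (5.21%), which leaves 41 genes. The count was 6 without a variance trend (4.74%), 3 with median-of-ratios (2.33%) and 3 with quantile scaling (2.14%). It was 12 with array weights (7.12%), 9 with voom (5.39%) and 4 without the 2 smallest libraries (5.08%). With each mouse left out in turn it was 3 to 20 (2.77% to 8.16%). It was 0 with the erythroid score (1.38%), 0 with 3 marrow scores (1.91%), 17 with the immature (5.24%) and 8 with the mature granulocyte score (4.08%) as a covariate, and 0 without HLU 4 and HLU 7 (2.14%). No gene was higher, and none passed the adjusted threshold, in any of these. The cause of the changes was not tested.

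Same-numbered mice of the 2 groups share a number in the labels, and whether they share anything else is not given in the sources used here. The correlation of their deviations ran from -0.17 to 0.51. For 1 of the 8 numbers (4) the control mouse correlated best with the HLU mouse of its own number. With the replicate number as a block, 4 genes were lower (Cdt1, Fen1, Orc1 and Rnaseh2a), against 840 features in all.

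The features lower (808) and higher (188) became 395 and 381 with median-of-ratios scaling, 364 and 460 with quantile scaling, 235 and 122 with the erythroid score, 324 and 494 with 3 marrow scores, and 364 and 112 without HLU 4 and HLU 7. Those higher were 391 without a filter, 106 at a minimum of 2 RPKM and 108 without the 2 smallest libraries. Leaving out each mouse gave 471 to 1385 lower and 117 to 363 higher. The median log2 fold change of the genes was -0.50 to -0.30 with each mouse left out. As a covariate, the erythroid score gave -0.030, the immature granulocyte score -0.30 and the mature granulocyte score -0.25. The median r of the genes with the erythroid score was 0.75 to 0.82 with each mouse left out and 0.63 after quantile scaling.

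Fold changes turned positive for 13 genes with the erythroid score (log2): Pold2 0.22, Pola2 0.17, Lig1 0.14, Mcm7 0.13, Pold1 0.093, Cdc45 0.077, Prim2 0.050, Mcm5 0.044, Rfc2 0.023, Rpa2 0.020, Mcm3 0.017, Orc6 0.00654 and Rfc3 0.00519. They did so for 8 with 3 marrow scores: Pold2 0.37, Pold1 0.30, Mcm7 0.12, Pola2 0.085, Rpa2 0.065, Mcm5 0.017, Rnaseh2a 0.013 and Lig1 0.00280. Pold2 was at 0.015 with median-of-ratios and 0.011 with quantile scaling, at 0.046 without HLU 4 and HLU 7, and from -0.22 to 0.10 with each mouse left out. Depth was lowest for Pold1 and Pold2, with 51 and 56 reads in their lowest mouse; whether it limited them was not tested.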
